A study of Homo sapiens with 10 samples.

Results

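The genes described here are ATF4 and 9 regulators and effectors of the integrated stress response that are known to be induced with it: ATF3, DDIT3, TRIB3, CHAC1, NUPR1, ASNS, CEBPB, CEBPG and PPP1R15A. They were chosen by name as known members of the response, at a time when earlier results of these data were known. These 10 genes are represented by 11 probe sets among the 22283 on the array, PPP1R15A by 2 and each of the others by 1, and the array holds 11963 genes with a probe set of a single symbol. All 11 probe sets passed the filter on low values.

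Gene expression was profiled on 10 Affymetrix hgu133a arrays with RNA of the human melanoma line MDA-MB-435. The 5 groups of 2 arrays each, called biological duplicates by the submitters, were untreated cells, cells treated with hepatocyte growth factor (HGF, the ligand of the MET receptor) for 1, 6 and 24 h, and cells transduced with integrin Beta4 (ITGB4) and not treated with HGF. The HGF dose is not given in the sources used here. No group of mock-transduced cells is labelled, although the descriptions of the ITGB4 arrays also hold the word Mock, so transduction and ITGB4 itself cannot be told apart, and untreated cells harvested alongside each time point are not among the labels either.

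All values are the authors' RMA expression levels on the log2 scale, on which a difference of 1 is a 2-fold change in signal. Over all probe sets they ran from 2.19 to 14.28, with array medians of 6.81 to 6.88, and arrays correlated with each other at 0.923 to 0.992 over the kept probe sets. The ITGB4 probe set 204990_s_at lay between 12.96 and 13.23 in the transduced cells and between 6.54 and 6.86 in the other 8 arrays, as the labels require. Probe sets 204989_s_at and 211905_s_at were also higher in the transduced cells. Probe set 214292_at, which did not pass the filter, was not (5.06 and 5.47, against 4.90 to 5.58 in the other 8 arrays). Of the melanocyte lineage markers, 6 of the 6 measured were above the filter, against 1 of 7 epithelial and 2 of 6 fibroblast markers. The lowest level kept by the filter was 7.31, which is not a measured background. Signal near background may limit the size of differences of genes under that level, which was not tested. In bulk RNA, fewer cells with a transcript and less of it per cell cannot be told apart.

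The integrated stress response is the program that cells start when a kinase of the translation factor eIF2 is activated by unfolded protein, amino acid shortage, heme shortage or viral RNA. Phosphorylated eIF2 slows general translation but favours translation of the ATF4 mRNA, and the ATF4 protein, a bZIP transcription factor, then induces genes of amino acid synthesis, further transcription factors, and feedback inhibitors that restore translation. The arrays measured mRNA and not protein or eIF2 phosphorylation, so the ATF4 level given below is that of its transcript, which is only one of the steps at which ATF4 is controlled.

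ATF4 binds DNA together with C/EBP proteins at C/EBP-ATF response elements (CARE), and members of the ATF and CREB family also bind the cyclic AMP response element (CRE). Promoter windows of 250 bases before to 50 bases after annotated starts were taken from RefSeq (GRCh38.p14) and searched on both strands for TGATGNAA (reverse complement TTNCATCA) and TGACGTCA, which is its own reverse complement. The table held 17 windows for 9 of the 10 genes and none for NUPR1. TGATGNAA was present in 4 of the 17 windows, 1 each of ATF3, ASNS, CHAC1 and CEBPG, against 3.62% of all 35116 windows. ATF3, ASNS and CEBPG had 2 windows each, and the other window of each held no such match. The narrower form TGATGCAA or TTGCATCA, which is contained in the former, was in windows of CHAC1 and CEBPG and in 0.866% of all windows. TGACGTCA was in the PPP1R15A window and in 1.85% of all windows. The stretches around these matches are shown 5′ to 3′ on the strand of the gene because they set apart the members whose promoters hold a match, with the match in capitals.
ATF3, chr1:212565176-212565263, plus strand: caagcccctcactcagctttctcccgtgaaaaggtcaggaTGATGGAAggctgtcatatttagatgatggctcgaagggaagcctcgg
ASNS, chr7:97872429-97872516, minus strand: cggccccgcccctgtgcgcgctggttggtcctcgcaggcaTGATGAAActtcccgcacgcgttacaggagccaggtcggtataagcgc
CHAC1, chr15:40953222-40953309, plus strand: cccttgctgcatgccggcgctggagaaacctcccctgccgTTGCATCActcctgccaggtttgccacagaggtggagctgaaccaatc
CEBPG, chr19:33374060-33374089, plus strand: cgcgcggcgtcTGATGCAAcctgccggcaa
PPP1R15A, chr19:48872323-48872410, plus strand: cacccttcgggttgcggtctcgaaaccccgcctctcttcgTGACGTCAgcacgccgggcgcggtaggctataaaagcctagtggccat
The matches describe the letters of these windows. Binding was not measured, and the windows of ATF4, DDIT3, TRIB3 and CEBPB, in which none of these letters was found, say nothing about other stretches of those genes.

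By group means, most of these transcripts were lowest after 6 h with HGF, though only ATF4 and NUPR1 were called different from the next-lowest group. How many of all genes were lowest after 6 h was not counted. Against untreated cells, 4 of the 10 genes fell at 6 h (ATF4, NUPR1, CHAC1 and DDIT3) and none rose, in a comparison in which 2.97% of the 6370 measured genes were called lower and 4.74% higher. At 1 h DDIT3 and PPP1R15A rose and none fell, where 0.832% of all genes were called higher and 6.42% lower. Differences were called by limma at an adjusted p under 0.05. By 24 h no member differed from untreated cells beyond the threshold, as was true of the whole array (0% higher and 0% lower), while at an unadjusted p under 0.05 the count was 2 of 10 (NUPR1 and PPP1R15A), against 13.5% of all genes. Each comparison with untreated cells shares the same 2 untreated arrays.

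**Figure D1:**
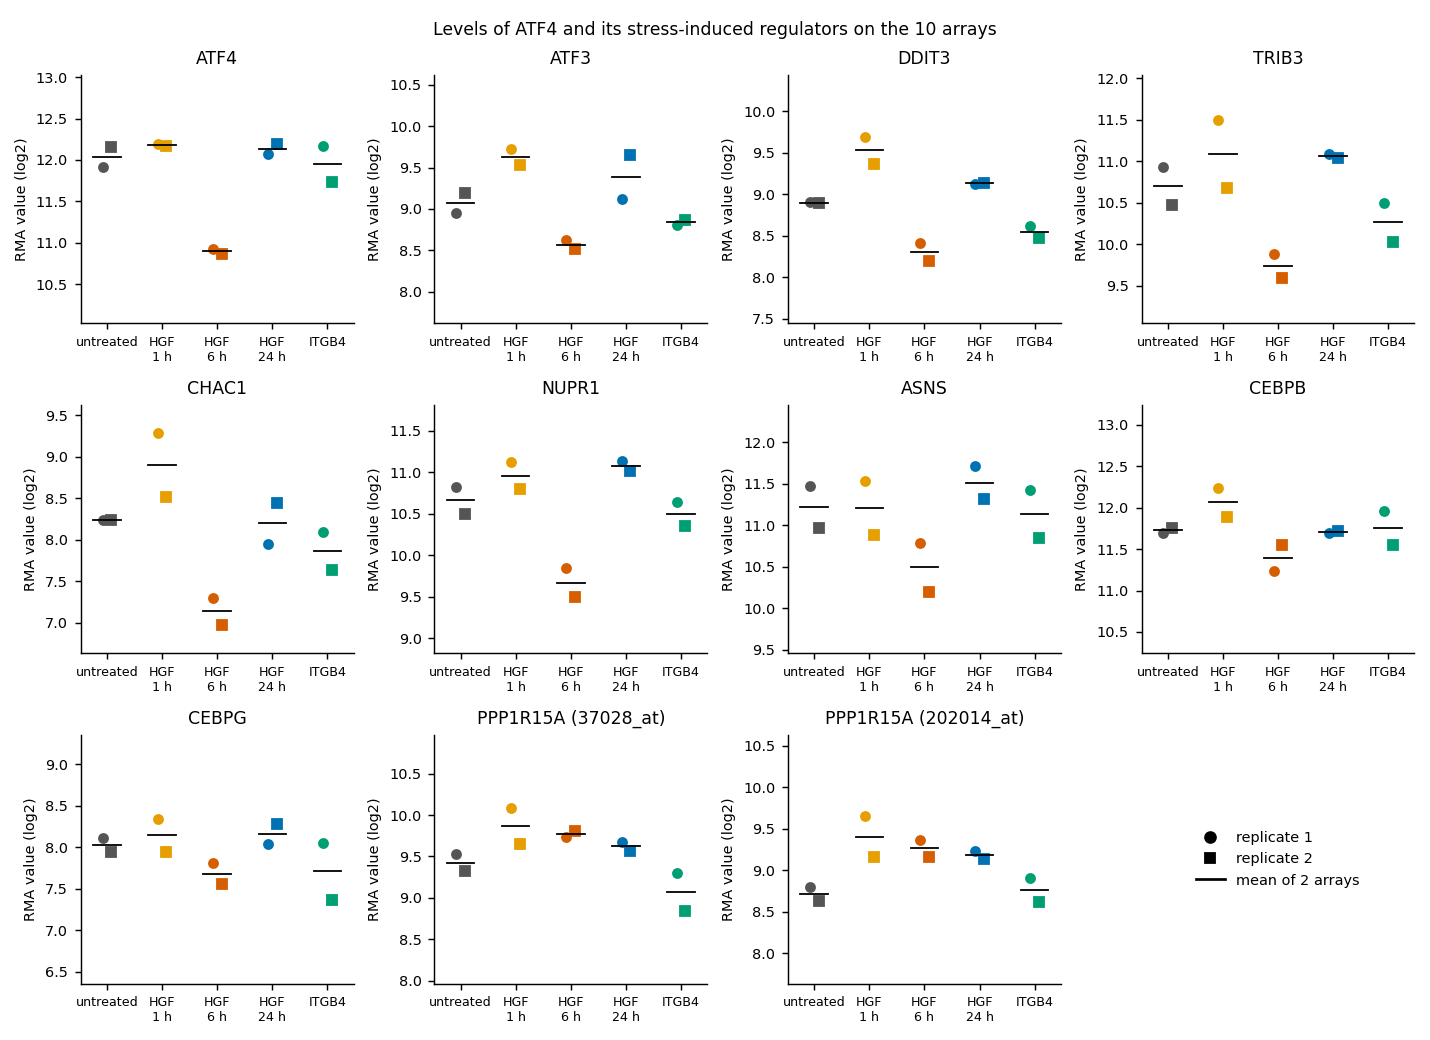
RMA expression level (log2) of each member probe set in untreated cells, after 1, 6 and 24 h with HGF and in ITGB4-transduced cells, with replicate 1 as circles, replicate 2 as squares and a line at the mean of the group. The ATF4 arrays at 6 h lie at 10.93 and 10.87, below the other 8 arrays, whereas both PPP1R15A probe sets are not lowest at 6 h.

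ATF4 is the central transcription factor of the response. Its level was 11.92 and 12.16 in the untreated arrays, 12.19 and 12.16 after 1 h, 10.93 and 10.87 after 6 h, 12.07 and 12.19 at 24 h, and 12.17 and 11.73 in ITGB4 cells. Both 6 h arrays were thus below every other array, and the other 4 groups lay close together. ATF4 fell by 1.14 on the log2 scale at 6 h (SE 0.15, 95% interval -1.48 to -0.80, adjusted p = 0.00457), a 2.20-fold lower signal. This call was lost without untreated replicate 2 (difference -1.02, adjusted p = 0.0692) or without HGF 6 h replicate 2 (-1.11, 0.0695). The differences from untreated cells at 1 h (0.14, interval -0.20 to 0.48, adjusted p = 0.575) and at 24 h (0.09, interval -0.25 to 0.43, adjusted p = 0.826) did not pass the test. Tested directly between times, ATF4 was lower at 6 h than at 1 h (-1.28, adjusted p = 0.00226) and higher at 24 h than at 6 h (1.23, adjusted p = 0.00137), and both calls held without any single array.

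The transcription factors DDIT3 and ATF3 act downstream of ATF4. DDIT3 encodes CHOP, which promotes cell death in prolonged stress. Its level was 8.90 and 8.89 in untreated cells, 9.70 and 9.37 after 1 h, 8.41 and 8.19 after 6 h, 9.13 and 9.14 at 24 h, and 8.61 and 8.47 in ITGB4 cells. None of the HGF groups overlapped the untreated arrays, with 1 and 24 h above and 6 h below. DDIT3 rose by 0.64 at 1 h (SE 0.14, adjusted p = 0.0300, a 1.55-fold higher signal) and fell by 0.60 at 6 h (adjusted p = 0.0337). Leaving out 1 array ended the call at 1 h when it was either untreated array (adjusted p = 0.139 and 0.185), HGF 1 h replicate 1 (0.186) or either HGF 6 h array (0.0502). The call at 6 h was lost without either untreated array (0.173 in both cases) or without either 6 h array (0.0974 and 0.270). The direct differences, -1.23 from 1 to 6 h (adjusted p = 0.00188) and 0.83 from 6 to 24 h (adjusted p = 0.00352), were both called and held without any single array.

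ATF3 encodes a bZIP factor that is itself induced early by many stimuli. Its level was 8.96 and 9.20 in untreated cells, 9.73 and 9.53 after 1 h, 8.62 and 8.52 after 6 h, 9.13 and 9.65 at 24 h, and 8.81 and 8.87 in ITGB4 cells. The 1 h arrays were above and the 6 h arrays below the untreated ones, but neither the difference of 0.55 at 1 h (adjusted p = 0.0793) nor that of -0.51 at 6 h (adjusted p = 0.0988) passed the test. ATF3 fell from 1 to 6 h by 1.06 (SE 0.17, adjusted p = 0.00495) and rose from 6 to 24 h by 0.82 (adjusted p = 0.00894). Without HGF 6 h replicate 2 both calls were lost (adjusted p = 0.0509 and 0.0778).

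CEBPB and CEBPG encode C/EBP proteins that pair with ATF4 on DNA. The CEBPB level was 11.69 and 11.75 in untreated cells, 12.24 and 11.88 after 1 h, 11.24 and 11.54 after 6 h, 11.69 and 11.71 at 24 h, and 11.96 and 11.55 in ITGB4 cells. Neither the difference of 0.34 at 1 h (adjusted p = 0.232) nor that of -0.33 at 6 h (adjusted p = 0.279) passed the test against untreated cells, and of all its comparisons only the direct fall from 1 to 6 h was called (-0.67, SE 0.17, adjusted p = 0.0234). That call was lost without HGF 1 h replicate 1 (0.158), HGF 6 h replicate 1 (0.163) or HGF 6 h replicate 2 (0.0693). CEBPG lay at 8.12 and 7.94, 8.34 and 7.95, 7.81 and 7.56, 8.04 and 8.29, and 8.05 and 7.37 in the same order of groups, and none of its differences was called. Its largest difference between HGF times was 0.48 from 6 to 24 h (SE 0.22, adjusted p = 0.145).

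TRIB3 and PPP1R15A are feedback genes of the response. TRIB3 encodes a pseudokinase that binds ATF4 and limits its activity. Its level was 10.93 and 10.47 in untreated cells, 11.50 and 10.68 after 1 h, 9.88 and 9.59 after 6 h, 11.09 and 11.04 at 24 h, and 10.50 and 10.03 in ITGB4 cells. The 6 h arrays were the lowest of all 10, yet the difference of -0.97 from untreated cells missed the threshold (SE 0.26, adjusted p = 0.0501). It passed without either ITGB4 array (0.0378) or without either 1 h array (0.0262). TRIB3 fell from 1 to 6 h by 1.36 (adjusted p = 0.00813) and rose from 6 to 24 h by 1.33 (adjusted p = 0.00641). The former call was lost without HGF 1 h replicate 1 (0.0607) or HGF 6 h replicate 2 (0.0727), and the latter without HGF 6 h replicate 2 (0.0639).

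PPP1R15A encodes GADD34, the subunit that directs protein phosphatase 1 to eIF2 and so restores translation. By group means it was not lowest at 6 h, unlike the other 9 genes. Of those 9, only ATF4 and NUPR1 differed from the next-lowest group by limma. Probe set 202014_at lay at 8.80 and 8.62 in untreated cells, 9.65 and 9.16 after 1 h, 9.37 and 9.16 after 6 h, 9.23 and 9.13 at 24 h, and 8.91 and 8.61 in ITGB4 cells. Probe set 37028_at lay at 9.53 and 9.32, 10.09 and 9.65, 9.73 and 9.81, 9.68 and 9.57, and 9.30 and 8.84 in the same order. On both probe sets all 6 HGF arrays were above both untreated arrays.

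The 1 h difference of PPP1R15A was called on 202014_at (0.69, SE 0.17, adjusted p = 0.0450, a 1.62-fold higher signal) and not on 37028_at (0.45, SE 0.18, adjusted p = 0.151). The call was lost without either untreated array (0.137 and 0.242), HGF 1 h replicate 1 (0.258), either 6 h array (0.0709) or either 24 h array (0.0560). At 6 h the differences of 0.55 (adjusted p = 0.0849) and 0.35 (0.279) did not pass. Between 1 and 6 h the difference was -0.14 (interval -0.53 to 0.24, adjusted p = 0.583) on 202014_at and -0.10 (interval -0.49 to 0.30, adjusted p = 0.721) on 37028_at. These intervals do not reach the differences of -0.67 to -1.77 called for 7 other members between these times, although the difference between PPP1R15A and those genes was not itself tested.

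The remaining members are effectors. NUPR1 encodes a small chromatin-associated stress protein. Its level was 10.82 and 10.50 in untreated cells, 11.12 and 10.80 after 1 h, 9.85 and 9.49 after 6 h, 11.14 and 11.02 at 24 h, and 10.65 and 10.35 in ITGB4 cells. Both 6 h arrays were the lowest of all, and both 24 h arrays were above both untreated ones. NUPR1 fell at 6 h by 0.99 (SE 0.18, limma, adjusted p = 0.0130). The difference was -0.83 without untreated replicate 1, -1.15 without untreated replicate 2 and -0.82 without HGF 6 h replicate 2. In each of these cases the call was lost, although the difference without untreated replicate 2 was larger in size. The direct fall from 1 to 6 h (-1.29, adjusted p = 0.00303) and rise from 6 to 24 h (1.41, adjusted p = 0.00137) held without any single array. At 24 h NUPR1 differed from untreated cells by 0.42 (interval 0.03 to 0.81 before adjustment, adjusted p = 0.421).

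CHAC1 encodes an enzyme that degrades glutathione. Its level was 8.24 and 8.24 in untreated cells, 9.28 and 8.52 after 1 h, 7.30 and 6.97 after 6 h, 7.95 and 8.45 at 24 h, and 8.09 and 7.64 in ITGB4 cells. The 1 h arrays were apart from each other. Both 6 h arrays lay below the lowest level kept by the filter, so the size of a difference that involves 6 h may not be exact. CHAC1 fell at 6 h by 1.10 (SE 0.25, adjusted p = 0.0306), but not without either untreated array (0.143 and 0.159) or either 6 h array (0.0950 and 0.234). From 1 to 6 h it fell by 1.77 (adjusted p = 0.00354), a 3.40-fold lower signal and the largest called difference among the members in size, and this held without any single array. The rise from 6 to 24 h (1.07, adjusted p = 0.0153) was lost without HGF 6 h replicate 2 (0.120) or HGF 24 h replicate 2 (0.0936).

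ASNS encodes asparagine synthetase, a classical target of ATF4 in amino acid shortage. Its level was 11.47 and 10.97 in untreated cells, 11.53 and 10.88 after 1 h, 10.79 and 10.19 after 6 h, 11.71 and 11.31 at 24 h, and 11.42 and 10.84 in ITGB4 cells. In each of the 5 groups replicate 1 was above replicate 2, by 0.40 to 0.66. The difference of -0.73 at 6 h (SE 0.29, adjusted p = 0.151) was not called, and neither was that of -0.71 between 1 and 6 h (adjusted p = 0.103). ASNS rose from 6 to 24 h by 1.02 (adjusted p = 0.0300), a call that was lost without HGF 6 h replicate 2 (0.229) or HGF 24 h replicate 1 (0.165).

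**Figure D2:**
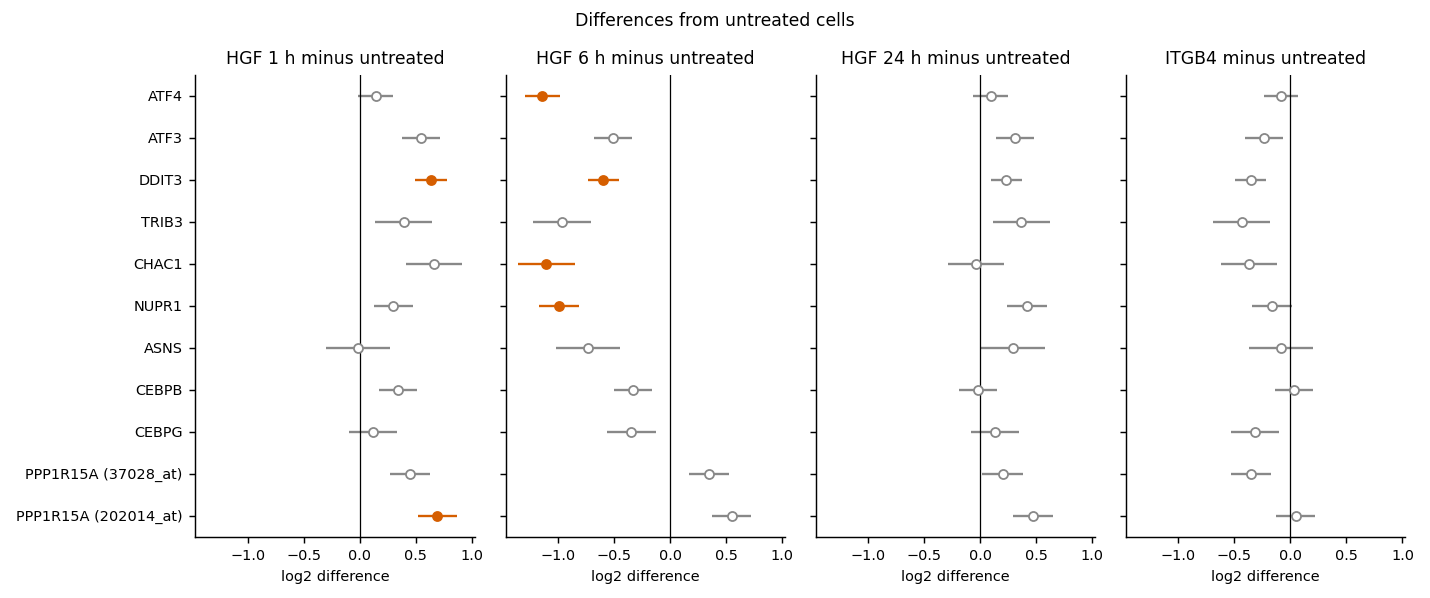
Log2 difference of each member probe set from untreated cells at 1, 6 and 24 h with HGF and in ITGB4-transduced cells, with bars of 1 SE and orange filled points for differences called by limma. The called points are DDIT3 and 1 PPP1R15A probe set at 1 h and ATF4, NUPR1, CHAC1 and DDIT3 at 6 h.

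Of the 10 comparisons, the median difference of the members was furthest from 0 between 1 and 6 h and between 6 and 24 h with HGF. From 1 to 6 h, 7 of 10 fell and none rose, where 8.19% of all measured genes were called lower and 13.5% higher. The median difference of the members was -1.14 and that of all genes -0.03, and all 10 members had a difference below 0. From 6 to 24 h, 7 of 10 rose and none fell, where 8.16% of genes were called higher and 14.1% lower. The median was 0.93 for the members and -0.00 for all genes, and PPP1R15A was the 1 member with a difference below 0. The former 7 genes were ATF4, ATF3, DDIT3, TRIB3, CHAC1, NUPR1 and CEBPB, and the latter held ASNS in place of CEBPB. Both comparisons use the same 6 h arrays, and without 6 h replicate 2 the counts were 4 and 3.

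**Figure D3:**
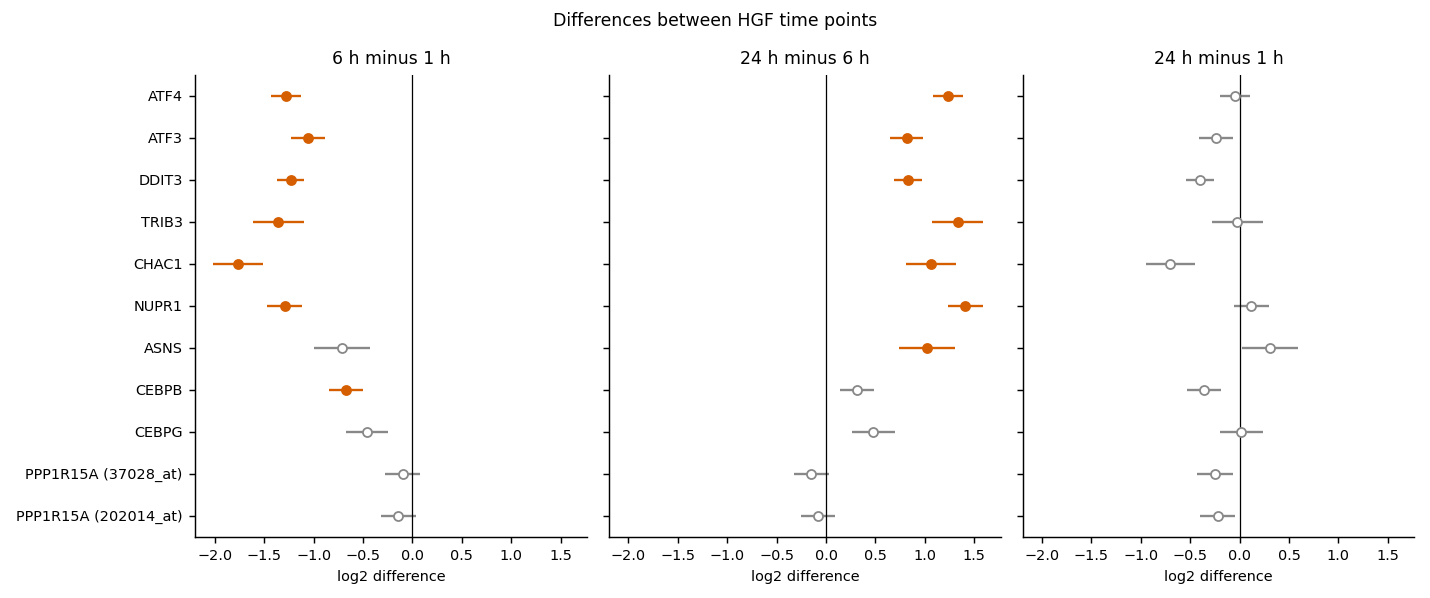
Log2 difference of each member probe set between HGF times (6 against 1 h, 24 against 6 h and 24 against 1 h), with bars of 1 SE and orange filled points for differences called by limma. In the first panel 7 genes are called below 0, in the second 7 are called above 0 and in the third no member is called.

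Over the comparisons with untreated cells, the median difference of the 10 members was 0.36 at 1 h (all genes 0.07), -0.66 at 6 h (all genes 0.01) and 0.22 at 24 h (all genes 0.01). The number called moved with single arrays. In both the 1 h and the 6 h comparison no call was left without untreated replicate 2 or without HGF 6 h replicate 2. At 1 h the same was true without untreated replicate 1, HGF 1 h replicate 1 or HGF 6 h replicate 1. Between 1 and 24 h no member was called by limma, 0.0157% of all genes were called higher and 0% lower, and at an unadjusted p under 0.05 there were 2 members, DDIT3 (-0.40, adjusted p = 0.235) and CHAC1 (-0.70, adjusted p = 0.248), against 18.1% of all genes.

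In ITGB4-transduced cells no member differed from untreated cells by limma, and 1 of 10 (DDIT3, -0.35, adjusted p = 0.732) did so at an unadjusted p under 0.05, a share near the 7.94% of all genes that passed it. Over the whole array 0.0471% of genes were called higher and 0% lower by adjusted p in this comparison. The interval for ATF4 was -0.42 to 0.25. The median of the members was -0.28 (all genes -0.01), with 9 of 10 differences below 0. PPP1R15A was counted there by 37028_at, while 202014_at differed by 0.05. Against the untreated mean, ITGB4 replicate 1 was higher for ATF4, ASNS, CEBPB, CEBPG and 202014_at (0.02 to 0.24) and lower for the others. ITGB4 replicate 2 was lower for every member probe set. The share of all genes below 0 was not counted. Compared directly, 5 members were higher after 1 h with HGF than in ITGB4 cells and none was lower, where 9.56% of all genes were called higher and 13.8% lower. DDIT3 differed by 0.99 (adjusted p = 0.00213), which held without any single array, CHAC1 by 1.04 (0.0190), TRIB3 by 0.83 (0.0451), ATF3 by 0.79 (0.0125) and PPP1R15A by 0.80 on 37028_at (0.0145). Without HGF 1 h replicate 1 only DDIT3 of these 5 was called, with adjusted p of 0.135 for CHAC1, 0.294 for TRIB3, 0.0815 for ATF3 and 0.101 for PPP1R15A. The ATF3 call was also lost without ITGB4 replicate 1 (0.0699), those of CHAC1 (0.0756) and PPP1R15A (0.0577) without ITGB4 replicate 2, and that of TRIB3 without either ITGB4, either 6 h or either 24 h array (0.0569 to 0.176).

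After 6 h, ATF4 (-1.06, adjusted p = 0.00374) and NUPR1 (-0.83, adjusted p = 0.0149) were lower than in ITGB4 cells by limma. PPP1R15A was called higher on 37028_at (0.70, adjusted p = 0.0310), while its difference of 0.50 on 202014_at was not called. In this comparison 6.14% of genes were called lower and 8.08% higher. Without HGF 6 h replicate 2 none of these 3 calls remained (0.0518, 0.151 and 0.186). The NUPR1 call was also lost without ITGB4 replicate 1 (0.0596), and that of PPP1R15A without ITGB4 replicate 2 (0.183) or HGF 6 h replicate 1 (0.119). After 24 h no member was called against ITGB4 cells by limma, where 0.487% of all genes were called higher and 2.35% lower. At an unadjusted p under 0.05, 5 of 10 members passed, against 26.5% of all genes.

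Ordered by mean level over the 5 groups, 9 of 10 genes were lowest after 6 h, 7 were highest after 1 h, and NUPR1, ASNS and CEBPG were highest after 24 h. How many of all genes had their lowest or highest mean in these groups was not counted. The CEBPG mean after 6 h was only 0.03 below that of ITGB4 cells (limma, adjusted p = 0.959). ITGB4 replicate 2 (7.37) lay below both of its 6 h arrays. Of the 44 pairs of neighbours in the orders of the 11 probe sets, 2 differed beyond the threshold, ATF4 and NUPR1 at 6 h against the next group, which was ITGB4 cells in both cases. The other pairs missed the threshold, which does not show that their levels were alike. For CHAC1 at 6 h against ITGB4 cells, for example, the interval before adjustment was -1.28 to -0.18.

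The wider pathway was described with 6 lists of genes written from general knowledge, of which 85 genes passed the filter. Against untreated cells 14 of the 85 were called at 6 h, 5 higher and 9 lower, where 4.74% of all genes were called higher and 2.97% lower. Between 6 and 24 h 30 were called, 20 higher and 10 lower, where the shares of all genes were 8.16% and 14.1%, so that the falls were no more frequent than over the array. These counts moved with single arrays, from 2 to 18 at 6 h, with 2 each without untreated replicate 2 or HGF 6 h replicate 2, and from 9 (without HGF 6 h replicate 2) to 36 between 6 and 24 h. The median over all genes was 0.01 at 6 h and -0.00 from 6 to 24 h.

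Upstream of ATF4, none of the 14 measured genes of the list of eIF2 kinases and subunits of eIF2 and eIF2B was called at 6 h (median 0.08). The list also holds GCN1, which activates an eIF2 kinase, and PPP1CA, PPP1CB and PPP1CC, the catalytic subunits of protein phosphatase 1. The largest differences in each direction were those of the eIF2 subunits EIF2S3 (-0.46, SE 0.27, adjusted p = 0.357) and EIF2S1 (0.45, SE 0.16, adjusted p = 0.118). From 6 to 24 h EIF2S1 (-0.67, SE 0.18, adjusted p = 0.0253, 3 of 3 probe sets) and EIF2B1 (-0.38, SE 0.12, adjusted p = 0.0469), a subunit of the exchange factor eIF2B, fell, and none rose, which for 2 of 14 is near the 14.1% of all genes called lower. Without HGF 6 h replicate 1 none of the 3 EIF2S1 probe sets was called (lowest adjusted p = 0.0687), and without HGF 24 h replicate 2 1 of 3 was (0.0153). EIF2B1 was not called without either untreated, either 6 h or either 24 h array (0.0636 to 0.302).

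Among 8 measured genes of amino acid synthesis and one-carbon metabolism, 2 fell at 6 h and none rose, with a median of -0.36, and from 6 to 24 h 4 rose and none fell, with a median of 0.58. Over all genes 2.97% fell at 6 h and 8.16% rose from 6 to 24 h. CTH, which makes cysteine from cystathionine, lay at 7.86 and 7.76 in untreated cells, 6.86 and 6.24 after 6 h and 7.85 and 7.95 after 24 h. It fell by 1.26 (SE 0.28, adjusted p = 0.0295, 1 of 2 probe sets), with the 6 h mean under the lowest level kept, and rose again by 1.35 (adjusted p = 0.00922). MTHFD2, a mitochondrial enzyme of the folate cycle, lay at 10.71 and 10.78 in untreated cells, 10.20 and 9.89 after 6 h and 11.12 and 11.07 after 24 h. It fell by 0.70 (SE 0.13, adjusted p = 0.0148) and rose by 1.05 (adjusted p = 0.00137). Both falls at 6 h were lost without either untreated array or HGF 6 h replicate 2 (0.0922 to 0.245), and that of CTH also without 6 h replicate 1 (0.0643). The rise of CTH was lost without HGF 6 h replicate 2 (0.0947).

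The aminoacyl-tRNA synthetases, which load amino acids on tRNAs, moved in both directions. Of 16 measured, 1 rose and 1 fell at 6 h, near the shares over all genes (4.74% and 2.97%). Of the same 16, 5 rose from 6 to 24 h, against 8.16% of all genes, and 2 fell, near the 14.1% of all genes. AARS1, the alanine enzyme, lay at 10.27 and 10.76 in untreated cells, 9.60 and 9.71 after 6 h and 11.21 and 11.39 after 24 h. It fell by 0.86 (SE 0.18, adjusted p = 0.0227) and rose by 1.65 (adjusted p = 9.61e-04). The histidine enzyme HARS1 went the other way, with 0.60 at 6 h (adjusted p = 0.0387) and -0.58 from 6 to 24 h (adjusted p = 0.0205). From 6 to 24 h CARS1, for cysteine, rose by 0.80 (adjusted p = 0.00331) and FARSA, a subunit for phenylalanine, fell by 0.44 (adjusted p = 0.0402). Of these calls at 6 h none held without untreated replicate 2 or without either 6 h array (0.115 to 0.280), nor that of HARS1 without untreated replicate 1 (0.232), whereas the rises of AARS1 and CARS1 held without any single array. The falls of HARS1 and FARSA from 6 to 24 h were lost without either 6 h array or HGF 24 h replicate 1 (0.0607 to 0.224), and that of FARSA also without either untreated array (0.0626).

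None of the 8 measured amino acid transporters was called at 6 h. SLC38A2, a carrier of small neutral amino acids, differed by -0.54 (adjusted p = 0.0758) and SLC7A11, the cystine and glutamate exchanger, by -0.30 (adjusted p = 0.600). From 6 to 24 h SLC1A4, a carrier of alanine, serine and cysteine, rose by 0.47 (adjusted p = 0.0310, 2 of 4 probe sets), 1 of 8 where 8.16% of all genes rose, a call lost without either 6 h or either 24 h array (0.0639 to 0.146).

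Of 19 other stress-induced genes, 2 rose and 3 fell at 6 h, where 4.74% of all genes rose and 2.97% fell. Of the same 19, 6 rose from 6 to 24 h, against 8.16% of all genes, and 3 fell, near the 14.1% of all genes. HERPUD1, a component of the degradation of misfolded proteins at the endoplasmic reticulum, lay at 10.48 and 10.21 in untreated cells, 9.19 and 9.22 after 6 h and 10.28 and 10.56 after 24 h, with a fall of 1.14 (adjusted p = 0.00767) and a rise of 1.22 (adjusted p = 0.00208). ATF5, which encodes another bZIP factor whose translation rises in stress, went against these genes. It lay at 6.91 and 6.77 in untreated cells, 7.97 and 8.05 after 6 h and 6.68 and 7.04 after 24 h, a rise of 1.17 on 1 of 2 probe sets (adjusted p = 0.00255) from a level under the lowest kept, and then a fall of 1.15 (adjusted p = 0.00121). KLHL24 fell by 1.44 (adjusted p = 0.00255, 1 of 2 probe sets, to a level under the lowest kept) and rose by 1.59 (adjusted p = 9.49e-04). The autophagy receptor SQSTM1 rose at 6 h by 0.58 (adjusted p = 0.0249, 1 of 2 probe sets), and the hydroxylase JMJD6 fell from 6 to 24 h by 0.71 (adjusted p = 0.0100). The 6 h calls of HERPUD1 (0.0598 to 0.0883) and SQSTM1 (0.101 to 0.186) were lost without either untreated or either 6 h array, and that of JMJD6 without either 6 h array or HGF 24 h replicate 1 (0.0542 to 0.0801), while those of ATF5 and KLHL24 held without any single array in both comparisons.

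Among 20 measured bZIP partners and relatives, 2 rose and 3 fell at 6 h (all genes 4.74% and 2.97%), and 4 rose and 3 fell from 6 to 24 h (all genes 8.16% and 14.1%, the latter near the share of the list). FOSL1, a subunit of the AP-1 factor, rose by 1.59 (SE 0.23, adjusted p = 0.00638) and then fell by 2.07 (adjusted p = 9.61e-04). The AP-1 subunit JUNB rose at 6 h by 0.63 (adjusted p = 0.0194). DBP, a bZIP factor with a circadian rhythm in many tissues, fell by 1.20 to a level under the lowest kept (adjusted p = 0.0483) and rose by 1.70 (adjusted p = 0.00542), and MAFF, a small MAF protein, fell by 0.81 (adjusted p = 0.0211) and rose by 0.73 (adjusted p = 0.0135). CREM, a relative of CREB, fell from 6 to 24 h by 0.70 on 1 of 3 probe sets (adjusted p = 0.0263). At 6 h all 4 of the named calls were lost without untreated replicate 2 or HGF 6 h replicate 2 (0.0752 to 0.348), those of JUNB, DBP and MAFF also without untreated replicate 1 or 6 h replicate 1 (0.0680 to 0.187), and that of DBP also without any 1 of the 1 h and 24 h arrays (0.0504 and 0.0583). From 6 to 24 h the calls of MAFF and CREM were lost without any 1 of the 6 h and 24 h arrays (0.0512 to 0.177) and that of DBP without HGF 6 h replicate 2 (0.0580).

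**Figure D4:**
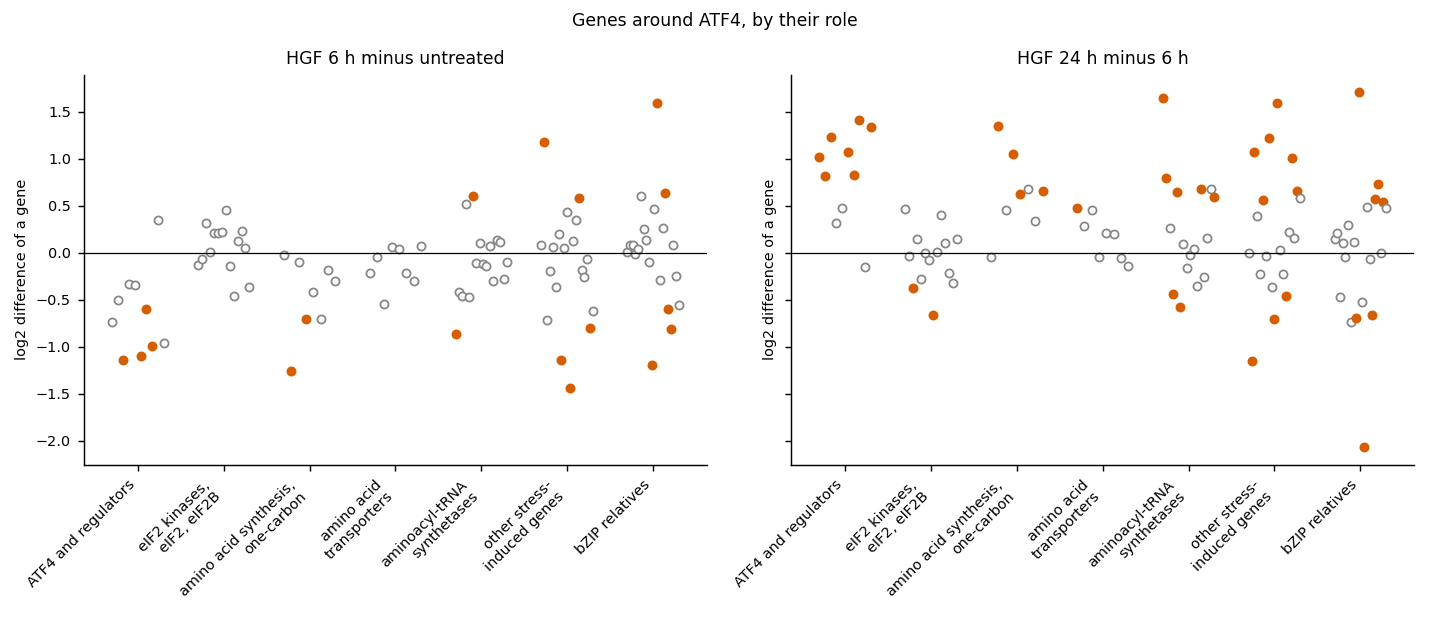
Log2 difference of each measured gene of the members and of the 6 pathway lists at 6 h against untreated cells and at 24 against 6 h, with orange filled points for genes called by limma. Each gene is shown by its called probe set with the largest difference, or by the one with the highest mean where none was called.

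Genes with a profile like that of ATF4 were ranked by the root mean square difference between array values, each gene centred on its own mean over the 10 arrays, among 6369 genes. On this measure ATF4 itself varied by 0.49 around its mean. The 6 most similar were HERPUD1 (0.16), the potassium channel subunit KCNS3 (0.18), the phosphatase CTDSP2 (0.18), the repressor MNT (0.18), the zinc finger gene ZCCHC24 (0.18) and the forkhead factor FOXN3 (0.21). All 6 fell at 6 h, by 0.75 (KCNS3) to 1.29 (FOXN3), and rose from 6 to 24 h, by 0.87 (MNT) to 1.29 (CTDSP2), a pattern that their choice by likeness to ATF4 entails. NUPR1 ranked 8 among all genes (0.22), and 7 other members ranked between 113 (ATF3) and 472 (CEBPG). PPP1R15A ranked 5068. The ranking is a description over arrays that all genes share.

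**Figure D5:**
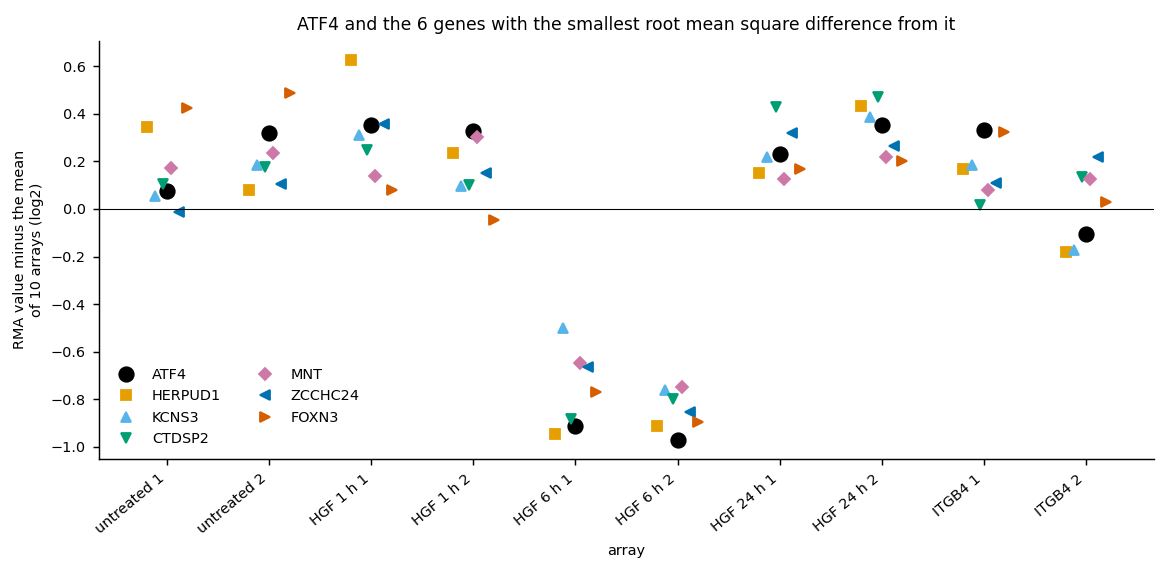
Levels of ATF4 and of the 6 genes most like it, each centred on its mean over the arrays (log2), for the 10 arrays in their 5 groups. All 7 genes are lowest in the 2 arrays at 6 h.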

How the data were processed

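The labels give 10 arrays of MDA-MB-435 RNA in 5 groups. The authors made the deposited log2 values with RMA, which summarizes probes and normalizes between arrays, and checked quality with the affy package (versions not given in the sources used here). Presence calls were not part of the table. A filter stood in for them, which kept the 45.5% of probe sets whose second-highest value was greatest, copying the number that the study kept and its rule of at least 2 samples. Symbols came from the platform annotation (19065 probe sets with 1 symbol, 1043 with several, 2107 with none and 68 controls). Only probe sets with 1 symbol are named.

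Testing used limma 3.58.1 in R 4.3.3. One fit of all arrays estimated each group's mean (5 residual degrees of freedom, prior of 5.92 degrees of freedom and SD 0.144). Benjamini-Hochberg adjustment covered the kept probe sets, separately for each of the 10 pairs of groups. The scripts were tested on simulated data. P-values measure the spread between the deposited arrays, and an exact permutation test of 2 against 2 arrays cannot go below 0.333. A gene counts as called when any of its kept probe sets is called, and in a median the kept probe set of highest mean stands for it. The members and lists were chosen with earlier results of these data known. Genes named are all members, at most 2 called genes in each direction with the largest difference per list at 6 h and between 6 and 24 h (failing any call, the 2 largest differences), the 6 genes most like ATF4, and ITGB4.

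The differences of members and the numbers of members called were recomputed under alternatives. These were no filter and a stricter one, median centring or cyclic loess of the arrays, and a gene's probe sets averaged. Others were the replicate number as a block, each array left out in turn, and spread from only the pair of groups compared. The last were a trended and robust prior, p-values adjusted over the 4 comparisons with untreated cells, and a required fold change of at least 1.5. Applying the alternatives to the named genes and the total count of the other lists was added after seeing the data. The ranking by likeness to ATF4 was recomputed under median centring and cyclic loess only. Orders of groups, medians, counts of signs, counts within single lists and counts at an unadjusted p were not recomputed. Promoter windows were searched with Python 3.11.15. The Illumina arrays of the same RNA were not analysed here.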

Additional observations from a re-analysis of the deposited data

Results flagged for a closer look

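The change from untreated cells differed between HGF times for 8 of the 10 genes, 7 in each of the comparisons below, where 8.19% of all genes were called lower and 13.5% higher from 1 to 6 h and 8.16% higher and 14.1% lower from 6 to 24 h. Since the untreated arrays cancel, the test of that difference is the direct comparison of the HGF times in the limma fit. Between 6 and 1 h the changes differed by -1.28 for ATF4, -1.06 for ATF3, -1.23 for DDIT3, -1.36 for TRIB3, -1.77 for CHAC1, -1.29 for NUPR1 and -0.67 for CEBPB on the log2 scale. Between 24 and 6 h they differed by 1.23 for ATF4, 0.82 for ATF3, 0.83 for DDIT3, 1.33 for TRIB3, 1.07 for CHAC1, 1.41 for NUPR1 and 1.02 for ASNS. The same 2 arrays at 6 h enter all of these values, and without HGF 6 h replicate 2 the counts of 7 and 7 became 4 and 3. Between 24 and 1 h no member was called by limma, and 2 passed at an unadjusted p under 0.05, against 18.1% of all genes.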

How the results depend on the processing

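Over all 10 comparisons the members had 29 called differences, and of 2114 member values recomputed under the alternatives none that was called in either setting changed sign. Calls were lost 76 times and gained 35 times. All 29 were kept with no filter, with a trended and robust prior and with a fold change of at least 1.5, and the stricter filter kept the 25 it could test and left out CHAC1. Median centring ended 3 calls and cyclic loess 2, with adjusted p of 0.0504 to 0.0554, and the median over probe sets moved by under 0.1 in both. The cause of the following shifts was not tested. At 1 h the 2 called members became 1 with median centring, 1 with cyclic loess, 1 with the mean of a gene's probe sets, 0 with the spread of the 2 compared groups and 0 with adjustment over the 4 comparisons. At 6 h the 4, all lower, became 8 with the spread of the 2 compared groups and 2 with adjustment over the 4 comparisons. Of the genes added to make 8, ATF3, TRIB3 and ASNS were lower, and PPP1R15A was higher (0.55 on 202014_at). These counts take calls in either direction. Shares of all genes called were not counted under the alternatives. Against ITGB4 cells, 5 at 1 h became 2 with the spread of the 2 compared groups, and 0 at 24 h became 1 with cyclic loess. The 14 genes called at 6 h in the 6 other lists became 9 with the stricter filter and 29 with the spread of the 2 compared groups.

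Leaving out 1 array, with the remaining array of its group assumed to vary like the other groups, gave 0 to 3 called members at 1 h, 0 to 5 at 6 h, 4 to 7 between 1 and 6 h, 3 to 7 between 6 and 24 h, and 1 to 5, 0 to 4 and 0 to 1 at 1, 6 and 24 h against ITGB4 cells. For the other lists it gave 2 to 18 genes at 6 h and 9 to 36 between 6 and 24 h. HGF 6 h replicate 2 mattered most, with 12 of the 29 calls kept without it. Of 29 called differences of genes named from the other lists, between 10 and 29 held without 1 array. Adjustment over the 4 comparisons applied to 12 of them and ended 3, and the stricter filter could test 19 and ended none. The other alternatives, which tested all 29, ended at most 3, except a fold change of at least 1.5, which ended 5. None reversed.

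The replicate number as a block kept all 29 calls, and the labels do not say that it marks a batch. The differences between replicates correlated between groups at -0.14 to 0.46. With the replicate block 7 members were called by limma at 6 h in place of 4. Added were TRIB3 (-0.97, adjusted p = 0.0108) and ASNS (-0.73, 0.00789) as falls, and PPP1R15A on 202014_at (0.55, 0.0275) as a rise. ASNS was also called lower at 6 than at 1 h (0.00457), and 3 members in place of 0 were called higher at 24 h than in ITGB4 cells. The share of all genes called with the block was not counted. In the other lists it gave 18 genes in place of 14 at 6 h, and 35 in place of 30 between 6 and 24 h. The 6 genes most like ATF4 were the same under median centring and cyclic loess. With 2 arrays a group, differences near the threshold cannot be placed firmly on either side of it. Levels under 7.31 may limit the size of differences of CHAC1, CTH, ATF5, KLHL24 and DBP.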

Other observations

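Replicate 1 was above replicate 2 in 5 of 5 groups for TRIB3 (by 0.05 to 0.82), NUPR1 (0.12 to 0.35), ASNS (0.40 to 0.66) and PPP1R15A on 202014_at (0.10 to 0.49). For ATF4 this held in 3 of 5 groups, with differences from -0.25 to 0.44. It held in 4 of 5 groups for DDIT3, CHAC1, CEBPG and PPP1R15A on 37028_at, and in 2 of 5 for ATF3 and CEBPB. How many of all kept probe sets had this order was not counted.

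The 5′ to 3′ balance of the control transcripts, a sign of RNA integrity, is given beside these. The 3′ probe set minus the 5′ probe set lay between -0.57 and -0.09 for ACTB and between -0.21 and -0.01 for GAPDH over the 10 arrays. Their part in the results was not tested.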
